A study of Mus musculus with 41 samples.

Results

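The core circadian clock genes described here are *Per1*, *Per2*, *Per3*, *Cry1*, *Cry2*, *Nr1d1*, *Nr1d2*, *Dbp*, *Arntl* and *Clock*. They are 10 of the 24371 genes in the deposited tables, were picked by symbol and all 10 were present. Levels are given as CPM, a gene's count over its column's sum with every column brought to the same size. They compare samples within a gene and not one gene with another, since they are not divided by transcript length. The study gave the synthetic glucocorticoid dexamethasone to pregnant mice and measured RNA in cells of the fetal lung at E18.5, shortly before birth.

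The first sort took GFP-positive, tdTomato-negative cells from Twist2Cre;Rosa26mT/mG lungs, 2 h after the dam received 1 mg/kg dexamethasone (4 libraries) or saline (2 libraries). Lungs were pooled by genotype, so each library is a pool of an unstated number of fetuses, and the Cre reporter marks cells by past as well as present *Twist2* promoter activity. A second set used the surface protein CD106, encoded by *Vcam1*. It holds 1 CD106+ library labelled with 1 mg/kg dexamethasone, 2 CD106+ libraries with no treatment in their labels and 2 CD106- libraries. The labels describe the CD106 selection (with CD45, CD31 and CD309 depleted) for accessibility samples only, and whether the RNA libraries followed it is not given in the sources used here; nor is a mouse line or an hour for the CD106 sorts by name. The third set is single C57Bl6/J lung cells from fetuses whose dams were injected at E17.5, 24 h earlier, with 2 mg/kg dexamethasone (15 cells) or saline (11 cells). No label gives the clock hour of injection or harvest.

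The mammalian clock is a transcriptional feedback loop. CLOCK and BMAL1, the product of *Arntl*, pair and bind E-box sequences in the *Per*, *Cry*, *Nr1d* and *Dbp* genes; PER and CRY proteins then enter the nucleus and inhibit that pair, while the REV-ERB receptors made from *Nr1d1* and *Nr1d2* repress *Arntl*. DBP is a transcription factor that binds D-box sequences and carries the rhythm to output genes. In many adult tissues *Per1* is an immediate glucocorticoid target, through which adrenal hormone sets the phase of peripheral clocks.

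The promoter stretches of 4 members are printed here because they carry the clock motifs named above. They come from RefSeq (GRCm38.p6), which matched 9 of the 10 members with 13 windows running from 250 bases before to 50 after an annotated start; each line reads 5′ to 3′ on the gene's strand, with motif matches in capitals.
Per1, chr11:69098736-69098835, plus strand: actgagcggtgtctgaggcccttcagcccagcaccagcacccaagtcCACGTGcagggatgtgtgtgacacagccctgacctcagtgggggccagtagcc
Per3, chr4:151044794-151044893, minus strand: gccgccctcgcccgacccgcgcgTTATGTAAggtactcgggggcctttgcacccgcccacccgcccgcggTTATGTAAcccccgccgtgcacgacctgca
Cry1, chr10:85185072-85185171, minus strand: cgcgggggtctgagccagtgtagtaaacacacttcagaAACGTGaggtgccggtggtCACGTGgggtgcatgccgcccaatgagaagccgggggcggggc
Nr1d1, chr11:98775378-98775477, minus strand: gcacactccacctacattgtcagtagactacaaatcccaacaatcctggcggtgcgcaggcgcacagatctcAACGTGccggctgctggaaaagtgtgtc

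Motifs were searched on both strands. The E-box CACGTG was found at position -166 from the first annotated start of *Per1* searched, and at -60 from that of *Cry1*. The *Per1* match, at chr11:69098783, lies inside the annotated span of the gene (69095108 to 69109965) and not before it. Of all 32851 windows in the RefSeq table, 7.15% hold this E-box. *Cry1* (-79), *Cry2* (-166) and *Nr1d1* (-28) had the variant CACGTT, present in 4.68% of windows, which reads AACGTG on the other strand. *Per3* had 2 copies of the D-box TTATGTAA, at -205 and -158, against 0.938% of windows with at least 1. *Arntl* had the ROR and REV-ERB element TAGGTCA at +31 of its second annotated start, against 2.61% of windows. The palindrome ACANNNTGT of the glucocorticoid receptor was in no member's window and in 6.85% of all windows. No window reached the beginning of the annotated span of *Per1*, *Arntl* or *Clock*, and *Per2* had no window. The absence of this palindrome therefore covers only the windows searched. None of the motifs overlapped another. A match is a description of the letters and not of binding.

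**Figure D1:**
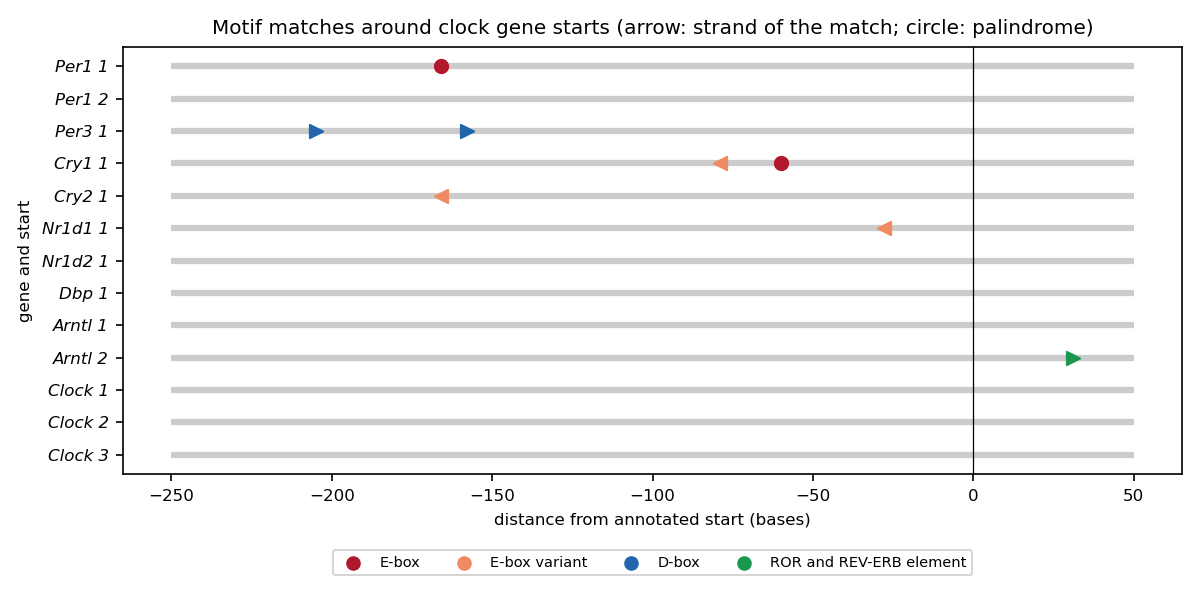
Motif matches around the annotated starts of 9 clock genes, with distance from the start in bases on the x axis and 1 row per annotated start on the y axis. Arrows give the strand of a match and circles the palindromic E-box. *Per3* carries 2 D-box matches and *Cry1* an E-box beside its variant, while *Nr1d2*, *Dbp* and *Clock* carry no match.

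Column totals ran from 1670896 to 7133941 counts in the 11 bulk libraries and from 215623 to 1787997 in the single cells. Replicates in the bulk sets differed by 9.15 to 37.9 times the sampling variance over 9 pairs. Whether replicates are different litters is not stated, and the p-values reflect library-to-library spread, which may be technical. *Vcam1* was at 268 CPM in the dexamethasone CD106+ library, 551 and 687 CPM in the CD106+ libraries and 1.35 and 3.00 CPM in the CD106- libraries. *Twist2* had 0 to 2 counts in the mesenchyme pools, whose summed mesenchyme markers were 7829 to 8952 CPM with dexamethasone and 8972 to 11807 CPM with saline. In bulk samples, fewer cells of a type and less RNA per cell cannot be told apart.

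In sorted mesenchyme 2 h after injection, none of the clock genes differed between dexamethasone and saline pools beyond the spread between pools. Other genes did differ between the same pools. *Fkbp5*, a chaperone of the glucocorticoid receptor, was higher with dexamethasone by a log2 fold change of 2.59 ± 0.29 (SE, edgeR adjusted p = 4.6e-05). *Tsc22d3*, encoding the leucine zipper protein GILZ, was higher by 1.77 ± 0.27 (edgeR adjusted p = 9.9e-04). *Nr3c1*, the receptor gene, had a log2 fold change of -0.63 ± 0.21 and did not pass (adjusted p = 0.14). These values come from edgeR's quasi-likelihood test with Benjamini-Hochberg adjustment over 11356 genes, of which 306 (2.69%) passed an adjusted p of 0.05. Of the 10 members, 8 were tested; 0 passed, and 0 had an unadjusted p under 0.05. DESeq2 and limma-voom also called 0 of the 8. In none of the 8 members tested did the 4 dexamethasone pools lie clear of the 2 saline pools, against 23.0% of the genes tested in which they did. Over the 8 members tested the median log2 fold change was 0.14, beside -0.01 for all genes tested.

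Among the repressors of the loop, *Per1* was at 135, 64.9, 63.5 and 74.3 CPM in the 4 dexamethasone pools, against 58.7 and 73.2 CPM in the saline pools. One dexamethasone pool stood high and the other 3 fell among or beside the saline values. The fitted *Per1* log2 fold change was 0.43 ± 0.33 (SE; edgeR adjusted p = 0.64), and without that high pool it was 0.10 ± 0.29 (adjusted p = 0.95). *Per2*, whose product is also a core inhibitor, was at 112, 108, 109.9 and 99.9 CPM with dexamethasone, against 114 and 90.1 CPM with saline. The saline pools bracketed all 4 treated ones, and the *Per2* log2 fold change was 0.13 ± 0.25 (edgeR adjusted p = 0.89). *Per3*, dispensable for the core loop in mice, was at 22.5, 7.48, 17.1 and 14.3 CPM with dexamethasone, against 13.8 and 22.2 CPM with saline. The dexamethasone pools of *Per3* thus held both its highest and its lowest value, and the log2 fold change was -0.16 ± 0.49 (edgeR adjusted p = 0.94).

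*Cry1* and *Cry2* encode the cryptochromes, the strongest repressors of CLOCK and BMAL1. *Cry1* was at 22.0, 12.2, 10.4 and 15.5 CPM in dexamethasone pools, against 15.0 and 26.7 CPM in saline pools, with a log2 fold change of -0.39 ± 0.46 (edgeR adjusted p = 0.80). *Cry2* was at 60.8, 29.2, 44.1 and 52.8 CPM with dexamethasone, against 39.5 and 25.1 CPM with saline. Of the 4 treated pools, 3 were above both saline pools for *Cry2* and 1 lay between them, with a log2 fold change of 0.60 ± 0.38 (edgeR adjusted p = 0.55). With 2 saline pools, several of these values depended on 1 of them. Without saline pool 2 the log2 fold change was 0.27 for *Cry2*, and it turned sign for *Per2* (-0.07), *Cry1* (0.04), *Per3* (0.19) and *Arntl* (0.23); without saline pool 1 that of *Cry2* was 1.03. None of these passed with edgeR.

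The REV-ERB genes overlapped between the dexamethasone and saline pools. *Nr1d1* was at 3.08, 2.04, 3.60 and 1.51 CPM with dexamethasone, against 5.39 and 0.823 CPM with saline, and was below the minimum count for the test. Its saline pools held both the highest and the lowest value of the 6. *Nr1d2* was at 12.5, 9.18, 15.3 and 14.3 CPM with dexamethasone, against 10.2 and 12.3 CPM with saline, and its log2 fold change was 0.25 ± 0.50 (edgeR adjusted p = 0.90). *Dbp* had a count of 0 in all 6 pools, where 3 counts, the limit that a count of 0 allows, would be 0.710 to 1.35 CPM with dexamethasone and 1.23 to 1.80 CPM with saline. *Dbp* was thus not detected at this depth, and no fold change is given.

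For the activators, *Arntl* was at 8.52, 2.38, 4.50 and 12.1 CPM with dexamethasone, against 5.98 and 11.9 CPM with saline, and its log2 fold change was -0.31 ± 0.70 (edgeR adjusted p = 0.92). The *Arntl* range within the dexamethasone pools exceeded that between the groups. *Clock* was at 221, 202, 183 and 216 CPM with dexamethasone, against 192 and 194 CPM with saline. Of the treated pools 3 were above both saline pools and 1 was below both, and the *Clock* log2 fold change was 0.15 ± 0.22 (edgeR adjusted p = 0.84).

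Dexamethasone pool 1 was the highest of the 6 pools for 4 of the 9 members with a count (*Per1*, *Per3*, *Cry2* and *Clock*). Saline pools were highest for *Per2*, *Cry1* and *Nr1d1*. Other features of the pools moved with treatment: 7 chondrocyte markers summed to 7.81 to 321 CPM with dexamethasone and 503 to 1276 CPM with saline. Likewise 6 proliferation markers summed to 523 to 879 CPM with dexamethasone and 987 to 1645 CPM with saline, and 6 cardiac muscle markers to 156 to 280.3 CPM with dexamethasone and 328 to 379 CPM with saline. The pools also differed in sex-linked transcripts. *Xist*, expressed from the inactive X chromosome, was at 374, 11111, 12.6 and 6.59 CPM with dexamethasone, against 33133 and 20880 CPM with saline. The Y-linked *Ddx3y* was at 106, 74.4, 131 and 174 CPM with dexamethasone, against 1.20 and 0 CPM with saline. With the chondrocyte list as a covariate, the log2 fold changes were -0.37 for *Per1*, -0.07 for *Clock*, -1.35 for *Cry1* and -1.08 for *Arntl* (edgeR adjusted p from 0.99 to 1.00). With *Xist* as a covariate they were -0.28 for *Nr1d2*, -1.56 for *Arntl*, -0.74 for *Per3* and 0.18 for *Cry2* (edgeR adjusted p from 0.61 to 0.94). The part that proliferating and cardiac cells play in these values was not tested.

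In a wider list of 24 clock-related genes, 19 were tested in mesenchyme and 0 passed with edgeR, DESeq2 or limma-voom. The 3 with the smallest p were *Sik1*, *Hlf* and *Cipc*. *Sik1*, a kinase that limits light-driven resetting of the brain clock in mice, was at 127, 70.0, 102.7 and 81.5 CPM with dexamethasone, against 53.9 and 58.4 CPM with saline; it was the only one of the 19 with an unadjusted edgeR p under 0.05 (log2 fold change 0.83 ± 0.30, adjusted p = 0.17). *Hlf*, a relative of *Dbp*, had a log2 fold change of 0.41 ± 0.23 (edgeR adjusted p = 0.48). *Cipc*, an inhibitor of CLOCK, had a log2 fold change of 0.54 ± 0.36 (edgeR adjusted p = 0.57).

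**Figure D2:**
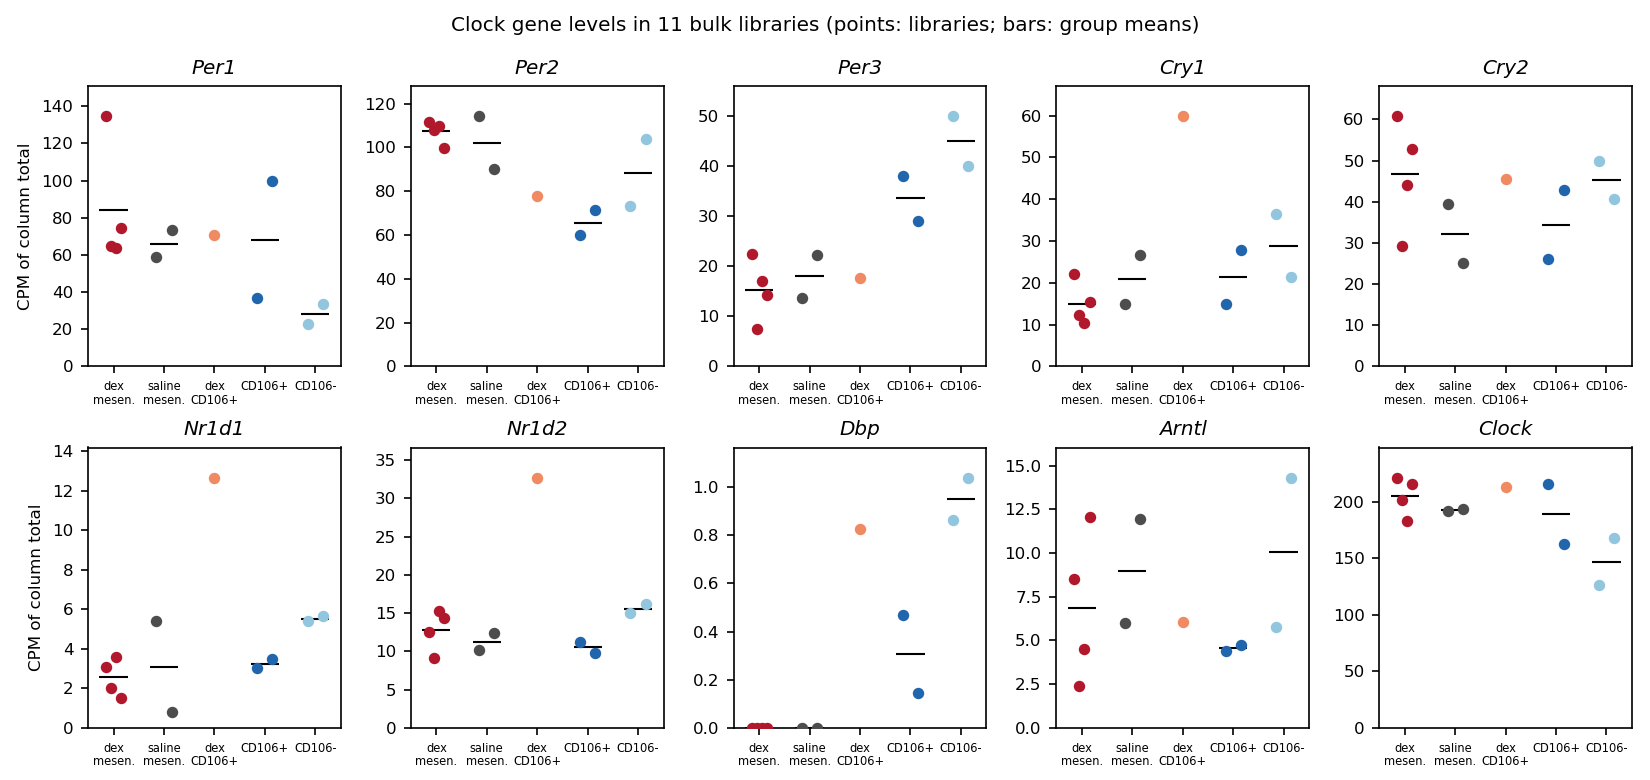
CPM of the 10 clock genes in 11 bulk libraries, with 1 panel per gene, the 5 groups on the x axis, points for libraries and bars for group means. The single dexamethasone CD106+ library stands above the other 10 libraries for *Cry1*, *Nr1d1* and *Nr1d2*, and *Dbp* is at 0 in all 6 mesenchyme pools.

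The CD106+ cells from the dexamethasone-labelled sample were set against the 2 CD106+ libraries with no treatment in their labels. In this comparison, with and without dexamethasone refer to those labels. A test of whether the effect differed from that in mesenchyme, given below, passed for 0 of the 9 members tested. *Nr1d1*, *Nr1d2* and *Cry1* were each higher than in both CD106+ libraries, by log2 ratios of 1.68, 1.55 and 1.44, and the treated library had the highest value of all 11 bulk libraries for these 3 genes. *Per1*, in contrast, lay between the CD106+ libraries. With 1 treated library, deposited in a separate table, the ratio (log2 of CPM + 1 over the mean of both CD106+ libraries) has no replicate check. A gene was counted as past the fold at 1 log2 unit or more and outside both CD106+ libraries: 3 of the 10 members were past it upward and 0 downward, against 13.2% (upward) and 14.8% (downward) of the 17200 genes with a count. The member median was 0.37, beside -0.12 over all those genes.

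*Nr1d1* was at 12.7 CPM in the dexamethasone CD106+ library (exact Poisson 95% interval 9.34 to 16.8 CPM, counting error only), against 3.01 and 3.50 CPM in the CD106+ libraries. *Nr1d2* was at 32.7 CPM (interval 27.2 to 39.0 CPM) with dexamethasone, against 11.2 and 9.81 CPM without. *Cry1* was at 59.9 CPM (interval 52.3 to 68.2 CPM) with dexamethasone, against 14.8 and 27.9 CPM without. In each of these 3 genes the interval lay wholly above both CD106+ values. Against either CD106+ library alone, the log2 ratio of *Nr1d1* was 1.77 or 1.60, that of *Nr1d2* 1.46 or 1.64, and that of *Cry1* 1.94 or 1.08.

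The remaining repressors were nearer to the CD106+ libraries. *Per1* was at 71.0 CPM with dexamethasone, against 36.7 and 99.8 CPM without, so that the CD106+ libraries differed from each other by more than either did from the treated one. *Per2* was at 77.8 CPM with dexamethasone, against 60.0 and 71.2 CPM without (log2 ratio 0.24). *Per3* was at 17.7 CPM with dexamethasone, against 38.1 and 29.0 CPM without; its log2 ratio of -0.89 was below both libraries but short of the fold. *Cry2* was at 45.6 CPM with dexamethasone, against 26.1 and 42.8 CPM without (log2 ratio 0.40).

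*Dbp* was at 0.827 CPM with dexamethasone, about 3 counts, against 0.470 and 0.146 CPM without, too few counts to separate. *Arntl* was at 6.07 CPM with dexamethasone (interval 3.85 to 9.10 CPM), against 4.41 and 4.77 CPM without, and both CD106+ values fell inside the interval. *Clock* was at 213 CPM with dexamethasone, against 216 and 163 CPM without. The activators therefore showed no difference detectable from this library.

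As an alternative, edgeR was fitted to all 5 CD106 libraries, with the lone treated library assumed to vary like the fractions. It called 1842 of 13708 genes (13.4%) and 2 of the 9 members tested: *Cry1* (log2 fold change 1.64 ± 0.43 SE, adjusted p = 0.013) and *Nr1d2* (1.78 ± 0.51, adjusted p = 0.020). When each CD106+ or CD106- library was left out in turn, the log2 fold change ran from 1.33 to 2.06 for *Cry1*. For *Nr1d2* it ran from 1.59 to 1.96. The lone treated library could not be left out, so these fits do not check it. *Nr1d1* had a log2 fold change of 2.10 ± 0.73 and missed the threshold (edgeR adjusted p = 0.060); it passed without CD106+ library 2 (adjusted p = 0.047). Without that library *Per1* (log2 fold change 1.00, edgeR adjusted p = 0.037) and *Per3* (-1.06, adjusted p = 0.047) also passed.

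The treated CD106+ library differed from the CD106+ libraries in its cells. The 6 endothelial markers summed to 2240 CPM in it, against 87.9 and 112 CPM in the CD106+ libraries, with all 6 present; *Pecam1* alone was at 508 CPM, against 22.1 CPM or less. Immune markers summed to 108 CPM with dexamethasone, against 7.62 and 16.1 CPM. Epithelial markers summed to 1176 CPM with dexamethasone, against 2056 and 3737 CPM, proliferation markers to 1475 CPM, against 3845 and 5109 CPM, and mesenchyme markers to 3571 CPM, against 4371 and 6587 CPM. The part of these cell types in the *Nr1d1*, *Nr1d2* and *Cry1* values was not tested. *Tsc22d3* was at 70.7 CPM with dexamethasone, against 32.9 and 35.7 CPM, and *Fkbp5* at 49.6 CPM, against 12.6 and 35.5 CPM.

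**Figure D3:**
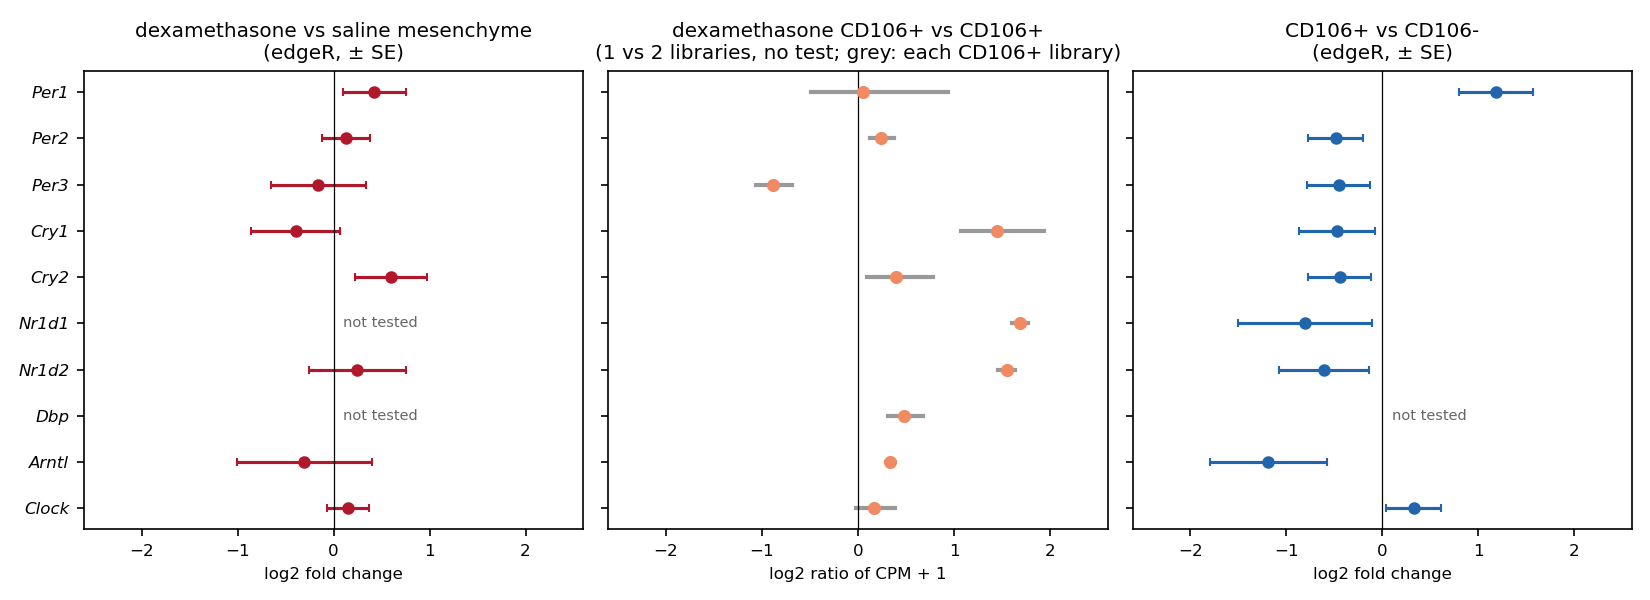
Log2 changes of the 10 clock genes in 3 bulk comparisons. The left and right panels show edgeR log2 fold changes ± SE, and the middle panel shows log2 ratios of CPM + 1 for 1 treated library, with grey bars spanning the ratio against each CD106+ library. *Cry1*, *Nr1d1* and *Nr1d2* sit beyond 1 in the middle panel only.

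In the wider clock list, 5 of 24 genes were past the fold upward and 6 downward in the dexamethasone CD106+ library, against 13.2% and 14.8% of all genes with a count; the list's median log2 ratio was 0.14, beside -0.12 over those genes. The 5-library edgeR fit called 3 of the 24 higher and 2 lower, against 13.4% of all genes tested in either direction. *Nfil3*, a repressor that competes with DBP for D-boxes, was at 89.7 CPM with dexamethasone, against 10.2 and 18.9 CPM without (edgeR log2 fold change 2.77 ± 0.42, adjusted p = 8.0e-05). *Bhlhe40*, encoding the E-box repressor DEC1, was at 119.8 CPM with dexamethasone, against 28.1 and 54.0 CPM without (edgeR log2 fold change 1.71 ± 0.37, adjusted p = 0.0033). *Ccrn4l*, encoding the rhythmic protein nocturnin, was at 38.8 CPM with dexamethasone, against 15.6 and 8.55 CPM without (edgeR log2 fold change 1.81 ± 0.52, adjusted p = 0.022). The log2 fold changes of these 3 genes stayed positive without each other library in turn, but the treated library could not be left out.

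On the lower side, *Wee1*, a cell cycle kinase under clock control in mouse liver, was at 44.3 CPM with dexamethasone, against 128 and 114 CPM without (edgeR log2 fold change -1.31 ± 0.36, adjusted p = 0.016). *Hlf* was at 19.3 CPM with dexamethasone, against 53.5 and 54.9 CPM without (edgeR log2 fold change -1.35 ± 0.45, adjusted p = 0.0495). Both of these calls were lost without either CD106- library, at adjusted p of 0.052 and 0.055 for *Wee1* and 0.088 and 0.093 for *Hlf*. *Rorb*, a ROR-family receptor, had the largest downward ratio among listed genes at 20 CPM or more, at 7.12 CPM with dexamethasone against 31.3 and 25.0 CPM without (log2 ratio -1.84; edgeR adjusted p = 0.054).

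**Figure D4:**
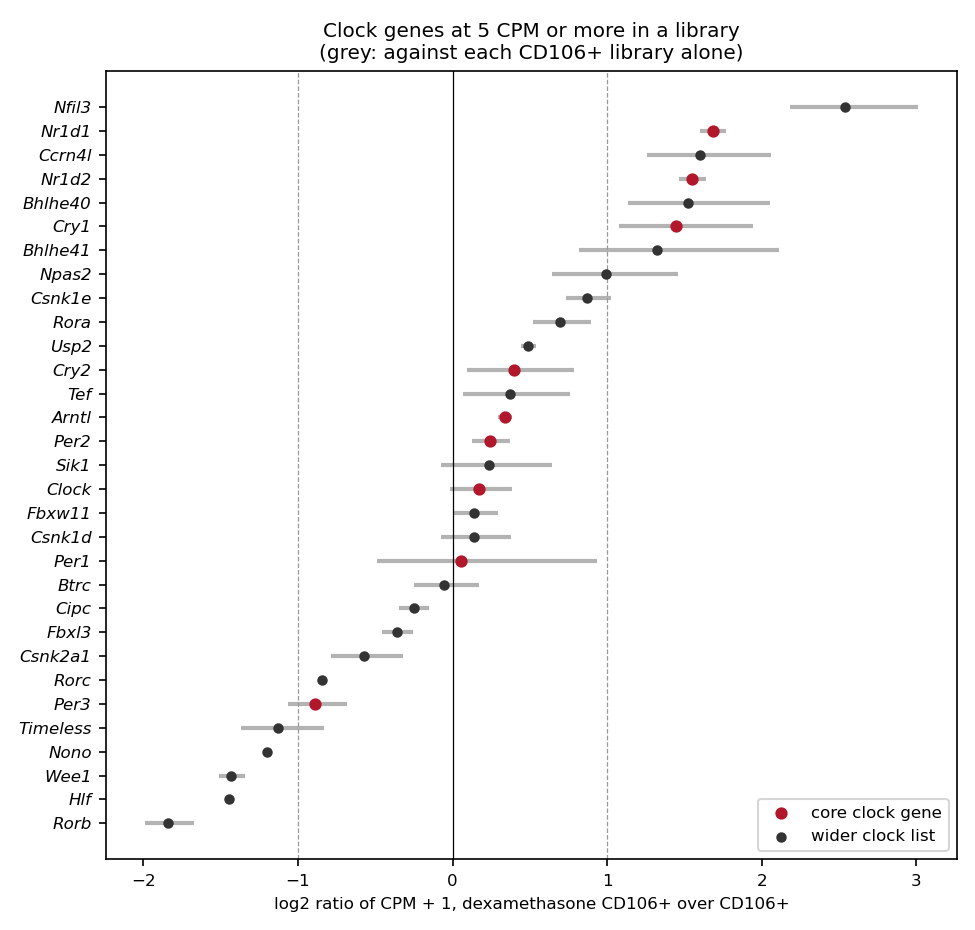
Log2 ratio of CPM + 1 in the dexamethasone CD106+ library over the mean of the CD106+ libraries, for members and wider-list genes at 5 CPM or more in at least 1 of the 3 libraries. Grey bars span the ratios against each CD106+ library alone, and dashed lines mark 1 and -1. *Nfil3* (2.54) is at the top and *Rorb* (-1.84) at the bottom.

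Whether the dexamethasone effect on the members differed between CD106+ cells and sorted mesenchyme was tested with an edgeR fit of all 11 bulk libraries, chosen after the values were seen. The difference of effects passed for 371 of 14721 genes (2.52%) and for 0 of the 9 members tested, with 1 unadjusted p under 0.05 among them; no other tool was run on it. *Cry1* had a difference of 2.02 ± 0.70 on the log2 scale (edgeR adjusted p = 0.15), *Nr1d1* 2.24 ± 1.33 (adjusted p = 0.47) and *Nr1d2* 1.50 ± 0.76 (adjusted p = 0.36). *Per1* had a difference of -0.22 ± 0.64 (edgeR adjusted p = 0.95). No member passed when any other library was left out in turn. Both effects carry the label 1 mg/kg, and whether the hours after injection match is not given.

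In the CD106+ and CD106- fractions, whose labels give no treatment, *Per1* was higher in CD106+ than in CD106- cells in every pairing of libraries. *Per2*, *Per3*, *Nr1d1*, *Nr1d2* and *Arntl* were lower in CD106+ cells in every pairing. Of the 9 members tested with edgeR, 0 passed, against 1239 of 12364 genes (10.0%); 1 member, *Per1*, had an unadjusted p under 0.05, and DESeq2 and limma-voom also called 0. The libraries of the fractions did not overlap for 6 of the 9 tested members, against 47.7% of the genes tested. The member median log2 fold change was -0.48, beside 0.05 for all genes tested. This comparison shares its CD106+ libraries with the preceding one.

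*Per1* was at 36.7 and 99.8 CPM in CD106+ cells, against 23.1 and 33.8 CPM in CD106- cells. The lower CD106+ library was close to the higher CD106- one, and the log2 fold change was 1.18 ± 0.38 (SE; edgeR adjusted p = 0.060). The *Per1* value depended on single libraries: it was 1.69 (edgeR adjusted p = 2.1e-07) without CD106+ library 1 and 0.39 (adjusted p = 0.66) without CD106+ library 2. With no filter on low counts the edgeR adjusted p was 0.0052. With the library number as a replicate block the log2 fold change was 1.08 (edgeR adjusted p = 0.020). *Per2* was at 60.0 and 71.2 CPM in CD106+ cells, against 73.1 and 104 CPM in CD106- cells (log2 fold change -0.49 ± 0.29, edgeR adjusted p = 0.39). *Per3* was at 38.1 and 29.0 CPM in CD106+ cells, against 50.0 and 40.1 CPM in CD106- cells (log2 fold change -0.46 ± 0.33, edgeR adjusted p = 0.53).

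Both cryptochromes overlapped between the fractions. *Cry1* was at 14.8 and 27.9 CPM in CD106+ cells, against 36.4 and 21.3 CPM in CD106- cells, and *Cry2* was at 26.1 and 42.8 CPM in CD106+ cells, against 49.8 and 40.8 CPM in CD106- cells. Their log2 fold changes were -0.48 ± 0.39 and -0.45 ± 0.33 (edgeR adjusted p = 0.60 and 0.54). The REV-ERB libraries did not overlap: *Nr1d1* was at 3.01 and 3.50 CPM in CD106+ cells, against 5.39 and 5.66 CPM in CD106- cells, with a log2 fold change of -0.80 ± 0.70 (edgeR adjusted p = 0.62). *Nr1d2* was at 11.2 and 9.81 CPM in CD106+ cells, against 15.0 and 16.1 CPM in CD106- cells (log2 fold change -0.61 ± 0.47, edgeR adjusted p = 0.57). The replicates of both receptors were close to each other, and at these counts the standard error remained near the size of the difference.

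*Dbp* was at 0.470 and 0.146 CPM in CD106+ cells, against 0.863 and 1.04 CPM in CD106- cells, which is 1 to 6 counts a library, and was not tested. *Arntl* was at 4.41 and 4.77 CPM in CD106+ cells, against 5.77 and 14.3 CPM in CD106- cells. One CD106- library made most of that gap, and the *Arntl* log2 fold change was -1.19 ± 0.61 (edgeR adjusted p = 0.29), or -0.34 without CD106- library 2. *Clock* was at 216 and 163 CPM in CD106+ cells, against 126 and 168 CPM in CD106- cells (log2 fold change 0.33 ± 0.28, edgeR adjusted p = 0.63).

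From the wider list, 2 of 22 tested genes were higher in CD106+ cells and 0 lower, against 10.0% of all genes tested in either direction. *Rorb* was at 31.3 and 25.0 CPM in CD106+ cells, against 5.96 and 3.83 CPM in CD106- cells (edgeR log2 fold change 2.49 ± 0.47, adjusted p = 5.8e-04). *Hlf* was at 53.5 and 54.9 CPM in CD106+ cells, against 18.1 and 27.3 CPM in CD106- cells (edgeR log2 fold change 1.20 ± 0.34, adjusted p = 0.021), and this call was lost without CD106- library 1 (adjusted p = 0.49) or 2 (adjusted p = 0.056). The fractions differ in cell makeup: mesenchyme markers summed to 4371 and 6587 CPM in CD106+ cells, against 707 and 1043 CPM in CD106- cells, and epithelial markers to 2056 and 3737 CPM, against 4386 and 4970 CPM. Endothelial markers summed to 87.9 and 112 CPM in CD106+ cells, against 13.3 and 17.7 CPM in CD106- cells, and cardiac muscle markers to 71.4 and 971 CPM, against 23.0 and 92.9 CPM. The part of this makeup in the clock gene values was not tested.

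Set side by side without a test, since the sorts differ, saline mesenchyme was above CD106+ cells in every pairing for *Per2* (log2 ratio of CPM + 1 of 0.63) and *Arntl* (0.83), and below them for *Per3* (-0.86). *Dbp*, at 0 in the saline pools and a few counts in CD106+ cells, has no order, and neither do the other 6 members, whose libraries overlapped. Scaling all 11 libraries by TMM moved every member's ratio upward, by a median of 0.16 (0.07 to 0.22). Across the 5 groups by mean level, *Per3* was highest in CD106- cells (45.1 CPM), then CD106+ cells (33.6 CPM), saline mesenchyme (13.8 and 22.2 CPM), the dexamethasone CD106+ library (17.7 CPM) and dexamethasone mesenchyme (15.4 CPM), the last 3 lying within each other's spread.

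For 3 members the genes with the most similar profile over the 11 bulk libraries were listed, by Euclidean distance between mean-centred log2(CPM + 1) among 8783 genes averaging 10 CPM or more. They were *Stat5b* (0.90), *Tln1* (0.93) and *Bckdk* (0.95) for *Per1*, *Chd2* (0.44), *Zc3h12c* (0.53) and *Arhgef12* (0.55) for *Dbp*, and *Samd8* (1.40), *Heatr5a* (1.42) and *Ikzf5* (1.44) for *Arntl*. The members' own spread on that scale was 2.25 for *Per1*, 1.35 for *Dbp* and 2.09 for *Arntl*. For *Dbp* the likeness rests on counts of about 6 or fewer a library.

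In single cells 24 h after injection, most clock transcripts were found in a minority of cells, often with 1 cell holding most of a group's sum. Of the 10 members, a dexamethasone cell held 1 to 7 (median 3) and a saline cell 0 to 6 (median 3). Labels name no animal for a cell, so each group is 1 sample, no test was made, and binomial intervals (Clopper-Pearson, 95%) cover counting error only. *Per2* was found in 8 of 15 dexamethasone cells (53.3%, interval 26.6 to 78.7%), against 1 of 11 saline cells (9.09%, interval 0.230 to 41.3%). *Per3* was found in 13 of 15 dexamethasone cells (86.7%, interval 59.5 to 98.3%), against 7 of 11 saline cells (63.6%, interval 30.8 to 89.1%). *Clock* was found in 8 of 15 dexamethasone cells, against 7 of 11 saline cells. Dexamethasone cells were shallower, with a median of 852850 counts and 3437 genes, against 1349765 counts and 5114 genes in saline cells.

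By mean CPM over cells, 6 members reached 20 CPM in either group and all 6 were past a log2 ratio of 1, as were 64.8% of the 7674 genes at that level. *Per2* averaged 167 CPM in dexamethasone cells and 10.9 CPM in saline cells (log2 ratio of CPM + 1 of 3.82), and kept the sign without any 1 cell. Its 3 highest dexamethasone cells had 1104, 979.5 and 348 CPM. *Per3* averaged 171 CPM in dexamethasone cells and 54.3 CPM in saline cells, but 77.4% of the dexamethasone sum came from 1 cell and 98.8% of the saline sum from another. Without dexamethasone cell 15 the *Per3* log2 ratio was -0.39, where it was 1.63 with it.

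Single cells carried the other ratios too. *Cry1* averaged 60.2 CPM in dexamethasone cells and 25.2 CPM in saline cells (log2 ratio 1.22), and was -3.42 without dexamethasone cell 3. *Arntl* averaged 60.2 CPM in dexamethasone cells and 23.0 CPM in saline cells (1.35), and was -3.59 without dexamethasone cell 13. *Clock* averaged 12.0 CPM in dexamethasone cells and 104 CPM in saline cells (-3.01), and was 2.39 without saline cell 9, which alone had 1128 CPM. Of the ratios past the fold, those of *Per2* and *Nr1d2* alone kept their sign without each cell in turn. *Nr1d2* averaged 2.65 CPM in dexamethasone cells and 122 CPM in saline cells (-5.07), with 1129 and 212 CPM in 2 saline cells and 0.864 CPM or less in the rest, and was found in 5 dexamethasone and 3 saline cells.

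The members under 20 CPM were *Per1* (mean 14.2 CPM in dexamethasone cells and 6.88 CPM in saline cells; found in 5 and 4 cells), *Cry2* (6.25 and 0.615 CPM; 3 and 3 cells), *Nr1d1* (4.76 and 2.30 CPM; 2 and 2 cells) and *Dbp* (0.687 and 0 CPM). *Dbp* was found in 2 dexamethasone cells and in 0 of 11 saline cells, where 3 cells, the limit that a count of 0 allows, would be a share of 27.3%; this limits cells with a count and not cells expressing the gene. At 10 CPM or more, *Per1* was in 6 of the 26 cells, *Per2* in 7 and both in 0. *Per2* and *Per3* shared 4 cells at that level, of 7 each, and *Arntl* and *Clock* 2, of 4 and 6. *Per1* and *Per3* (6 and 7 cells), *Cry1* and *Cry2* (4 and 1) and *Nr1d1* and *Nr1d2* (3 each) shared 0. The cells with *Per2* and *Per3* included the shallow dexamethasone cells 11, 12 and 15, with 215623, 306290 and 406877 counts. In cell 11, 3 *Per3* counts made 13.9 CPM. The overlap that chance would give was not computed for any pair. From the wider list, the largest ratios at 20 CPM were those of *Btrc* (5.89; found in 4 dexamethasone and 4 saline cells), *Nfil3* and *Bhlhe40* (-4.01; found in 3 and 6 cells). *Nfil3* was found in 0 dexamethasone and 3 saline cells, with means of 0 and 23.2 CPM; its ratio rests on the pseudocount and is not given.

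Cell makeup moved with the single-cell groups. Endothelial markers summed to a median of 4.18 CPM (0 to 1244) in dexamethasone cells and 525 CPM (2.22 to 5283) in saline cells. Erythroid markers reached at most 140625 CPM in a dexamethasone cell and 0.569 CPM in a saline cell. For epithelial markers these maxima were 8283 and 684 CPM, and for cardiac muscle markers 0 and 5051 CPM. Leaving out cells by these other markers was not tried. When cells with *Pecam1* above 100 CPM were left out, 14 dexamethasone and 6 saline cells remained, and the log2 ratio was -5.90 for *Nr1d2* and 2.59 for *Clock*, the last with its sign turned. The 1 saline cell with *Per2* was among those left out, so the saline cells that remained had a *Per2* count of 0. *Tsc22d3* averaged 156 CPM in dexamethasone cells and 772 CPM in saline cells, and *Fkbp5* 50.0 CPM in dexamethasone cells and 116 CPM in saline cells. One saline cell held 83.0% of the saline *Fkbp5* sum: the log2 ratio of -1.20 was 1.17 without that cell and 0.38 without the *Pecam1* cells. The *Tsc22d3* log2 ratio of -2.30 ran from -3.11 to -2.06 with 1 cell left out and was -1.99 without the *Pecam1* cells.

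**Figure D5:**
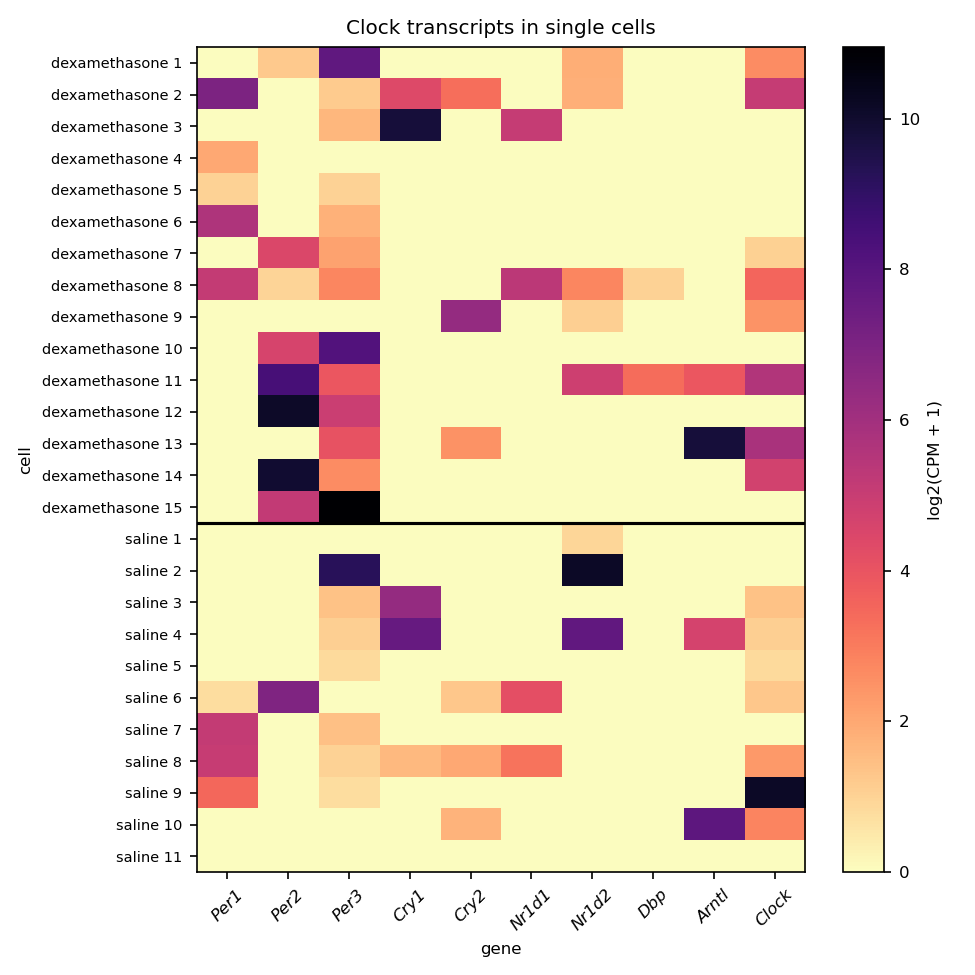
Log2(CPM + 1) of the 10 clock genes in 26 single cells, with 15 dexamethasone cells above the line and 11 saline cells under it. Most squares are at 0, *Per2* appears in 8 dexamethasone cells and 1 saline cell, and *Clock* has a single dark square in saline cell 9.

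The counting rule limits some of these values. Annotated spans overlap for *Nr1d1* and *Thra* (1075 bases), *Dbp* and *Sphk2* (741 bases), *Per3* and *Uts2* (4714 bases) and *Cry2* and *D930015M05Rik* (23417 bases), and whether counting used strand is not given in the sources used here, so reads in those stretches cannot be assigned with certainty. In mesenchyme *Thra* had a log2 fold change of 0.50 ± 0.41 (edgeR adjusted p = 0.68) and *Sphk2* one of 0.35 ± 0.56 (edgeR adjusted p = 0.87). In the 5-library fit of the dexamethasone CD106+ library, where *Nr1d1* was high, *Thra* had a log2 fold change of -0.03 (edgeR adjusted p = 0.97).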

How the data were processed

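The data comprise 4 tables of 24371 genes, covering 11 bulk libraries and 26 single cells. The authors deposited expected counts (estimated counts per gene, some fractional), not normalized, as the deposited values show. The submitters' processing notes name mm10, TopHat2 and Partek among their tools, with no role or version. How reads were counted, and with which strand setting, is not given in the sources used here. The 4 accessibility samples were not analysed here.

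Columns were matched to samples by description; the table of the dexamethasone CD106+ library is named by that sample's description alone. Members and lists were chosen with earlier results of these data known. Named genes were the 10 members, wider-list genes past a threshold (otherwise the 3 smallest p, or the 3 largest ratios at 20 CPM or more), *Fkbp5*, *Tsc22d3*, *Nr3c1*, overlapping genes and the 3 nearest profiles of 3 members.

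Counts were rounded and tested with edgeR 4.0.16 (filterByExpr, TMM, quasi-likelihood, robust; Benjamini-Hochberg) in R 4.3.3, within a table except for the 5-library and 11-library fits, which join separately deposited tables; DESeq2 1.42.0 and limma 3.58.1 were alternatives, and scripts were tested on simulated data. A gene was found in a cell or library at 0.5 counts or more. Ratios used a pseudocount of 1 CPM. Intervals and floors (3 counts) cover counting error only.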

Additional observations from a re-analysis of the deposited data

Results flagged for a closer look

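In the 4 dexamethasone mesenchyme pools, the 9 members with a count, *Fkbp5*, *Tsc22d3* and *Nr3c1* were searched for a pool standing apart. The measure was a pool's gap to the nearest pool over the whole range of the pools. Chance flags about 1 in 20 groups of this kind. For 3 genes 1 pool stood apart from the other 3, and *Per1* was the only member among them. For *Per1* the gap was 0.848 of the range, with pool 1 high at 135 CPM. For *Fkbp5* it was 0.866, with the same pool high at 260.2 CPM. For *Tsc22d3* it was 0.893, with pool 3 low at 125 CPM.

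The dexamethasone effect in CD106+ cells differed from that in sorted mesenchyme for 3 of 24 genes of the wider clock list, against 371 of 14721 genes (2.52%), by an edgeR test of the difference itself over 11 libraries that was chosen after the values were seen and rests on 1 treated CD106+ library. *Nfil3* had a difference of 2.62 on the log2 scale (edgeR adjusted p = 0.013), *Bhlhe40* of 2.30 (adjusted p = 0.046) and *Hlf* of -1.79 (adjusted p = 0.046). Leaving out each other library in turn, *Nfil3* passed in 8 of 10 fits (lost without saline mesenchyme pool 1 at adjusted p = 0.092, and without CD106+ library 1 at 0.081), *Bhlhe40* in 1 of 10 (adjusted p up to 0.31) and *Hlf* in 2 of 10 (up to 0.12). *Nfil3* was at 62.3, 51.3, 46.8 and 64.5 CPM in dexamethasone mesenchyme, against 68.8 and 37.8 CPM in saline mesenchyme, beside 89.7 CPM in the dexamethasone CD106+ library, against 10.2 and 18.9 CPM in the CD106+ libraries. Endothelial markers summed to 2240 CPM in the dexamethasone CD106+ library, against 87.9 and 112 CPM in the CD106+ libraries, and their part in these differences was not tested.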

How the results depend on the processing

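The 8 members tested in mesenchyme stayed without a call under all 16 alternatives, and in the fractions *Per1* alone passed under any of 12. Genes called in mesenchyme (306) numbered 598 with no filter on low counts, 512 with DESeq2, 186 with *Xist* and 25 with the chondrocyte list as covariate, and 179 to 335 when 1 pool was left out; in the fractions (1239) leaving out 1 library gave 546 to 2756. Whether same-numbered libraries were sorted together is not given in the sources used here, and the main fits left the number out. Correlations of same-numbered libraries were -0.04 and 0.12 in mesenchyme and 0.01 in the fractions. With 2 libraries a fraction, such a correlation cannot show whether they pair. With the number as a replicate block, 154 genes were called in mesenchyme and 1276 in the fractions, and *Per1* passed in the fractions (edgeR adjusted p = 0.020). Genes past the fold in the dexamethasone CD106+ library (4816) numbered 2502 with a pseudocount of 5. By another rule, an edgeR adjusted p under 0.05, the 5-library fit called 1842 of 13708 genes. The median log2 ratio of all genes in that library was -0.12 by column totals and -0.06 by TMM. Members with a higher mean in saline mesenchyme than in CD106+ cells (4) numbered 8 under TMM, which moved all the members' ratios upward by a median of 0.16, and from 4 to 7 with 1 library left out. Among members at 20 CPM or more, the single-cell ratios that turned sign were those of *Per3* (-0.39 to 6.67), *Cry1* (-3.42 to 2.72), *Arntl* (-3.59 to 4.17) and *Clock* (-3.39 to 2.39) when 1 cell was left out, and *Clock* (2.59) without *Pecam1* cells; below that level the *Per1* ratio ran from -0.13 to 1.55 with 1 cell left out. The cause was not tested. In mesenchyme *Dbp* and *Nr1d1* had too few counts to be tested in the main fit.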
